A study of Homo sapiens with 8 samples.

Results

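Tetraspanins are a family of membrane proteins, and the transcripts of 30 of them were followed through an epithelial-mesenchymal transition (EMT) of prostate cancer cells and its partial reversal by a ZEB1 shRNA. The members were the genes named TSPAN followed by a number, together with CD9, CD37, CD53, CD63, CD81, CD82, CD151, UPK1A and UPK1B, among the 19775 genes that had a probe set annotated with 1 gene symbol. Where a gene had several probe sets, the one brightest on average across the 8 arrays stood for it, so the choice used no difference between groups. The samples were human PC3-derived prostate cancer cell lines, each measured on 1 Affymetrix oligonucleotide array. PC3-Epi (1 array) is a luciferase-expressing epithelial sub-population of PC3. PC3-EMT1, PC3-EMT12 and PC3-EMT14 (EMT, 3 arrays) are stable mesenchymal sub-populations recovered after PC3-Epi cells had been grown together with interleukin-4-treated macrophages, and none of these 4 samples carried an shRNA. PC3-EMT1 and PC3-EMT14 were also measured after a lentivirus had brought in either a scrambled control shRNA (Scr, 2 arrays) or the ZEB1 shRNA sh4 (sh4, 2 arrays), whose cells the labels call mesenchymal and epithelial, respectively. All EMT lines descend from PC3-Epi, a single ZEB1 shRNA was used, and each line and condition has 1 array, with no separate cultures described. The p-values therefore measure only the spread between these arrays, which may be technical, and the number of arrays limits the precision.

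Tetraspanins cross the membrane 4 times and act mainly by holding other membrane proteins together: they bind integrins, immunoglobulin superfamily proteins, proteases and EPCAM, and arrange them in tetraspanin-enriched microdomains. CD9, CD63 and CD81 are familiar markers of extracellular vesicles, CD82 is known as a metastasis suppressor in prostate cancer, and CD151 anchors laminin-binding integrins. TSPAN8 is associated with metastasis of gastrointestinal tumours. The TspanC8 group (TSPAN5, TSPAN10, TSPAN14, TSPAN15, TSPAN17 and TSPAN33) escorts the protease ADAM10 to the cell surface, while UPK1A and UPK1B are uroplakins of the bladder lining.

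The arrays formed separately scaled sets. The median log2 value was 4.33 to 4.35 on the 4 untransduced arrays and 6.19 to 6.23 on the 4 transduced arrays, and levels were compared only within a set. The highest of 27 bacterial control probe sets, to which no human transcript should bind, read 4.56 in the untransduced and 6.00 in the transduced set, and values under it are called dim here. ZEB1, the targeted gene, read 3.08 in PC3-Epi, 6.81 in PC3-EMT1, 7.11 in PC3-EMT12 and 6.50 in PC3-EMT14. It read 9.87 and 10.08 in the Scr arrays of PC3-EMT1 and PC3-EMT14, against 9.12 and 9.01 in their sh4 arrays, a difference of -0.91 ± 0.13 (SE) on the log2 scale. Of 7 epithelial markers, 5 were called lower in EMT against PC3-Epi and KRT8 and KRT18 were not, and of 4 mesenchymal markers 3 were called higher, VIM (vimentin) by 1.91, while FN1 (fibronectin) was at -0.37. CDH1 (E-cadherin) read 11.31 in PC3-Epi and was dim in the EMT lines, at 3.07 to 4.00. In sh4 against Scr, CDH1, ESRP1 and EPCAM were higher by 2-fold in both lines, but RAB25 and GRHL2 were dim in both sh4 arrays, and the 4 mesenchymal markers lay lower in both lines, VIM at -0.33 on average. Of 14 macrophage markers, the same number (2) exceeded the bacterial controls on every untransduced array, and their summed log2 level was 54.0 in PC3-Epi and 54.5 to 55.5 in the EMT lines. CD14, CD163, MRC1 and PTPRC were dim on all 8 arrays. In contrast, ITGB2 (8.00 to 8.51) and LAPTM5 (5.11 to 6.61) exceeded the bacterial controls on all 8, and CSF1R and AIF1 did so on the transduced arrays only. On the transduced arrays 4 or 5 of the 14 exceeded the controls, and the sums were 77.8 and 79.4 in Scr and 79.5 and 79.8 in sh4 cells. The part of these markers in the results was not tested.

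The first comparison asked which tetraspanins differed between the mesenchymal lines and the epithelial cells they came from. TSPAN8 rose far above every other member, TSPAN4, TSPAN10, CD151 and TSPAN9 rose modestly, and TSPAN2 and TSPAN18 fell. The surface tetraspanins CD9, CD63, CD81 and CD82 did not pass the test. Of the 30 members, 21 reached log2 5 on at least 1 untransduced array and were tested with limma, at an adjusted p threshold of 0.05. 5 members were called higher, where 13.9% of all 11921 genes tested were, and 2 were called lower, where 15.4% of all genes were. At an unadjusted p under 0.05 there were 10 members, where 44.7% of all genes were. The median difference of the members tested was 0.32, and that of all genes tested was 0.07. In bulk RNA such as this, fewer cells that express a gene and less RNA per cell cannot be told apart.

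**Figure D1:**
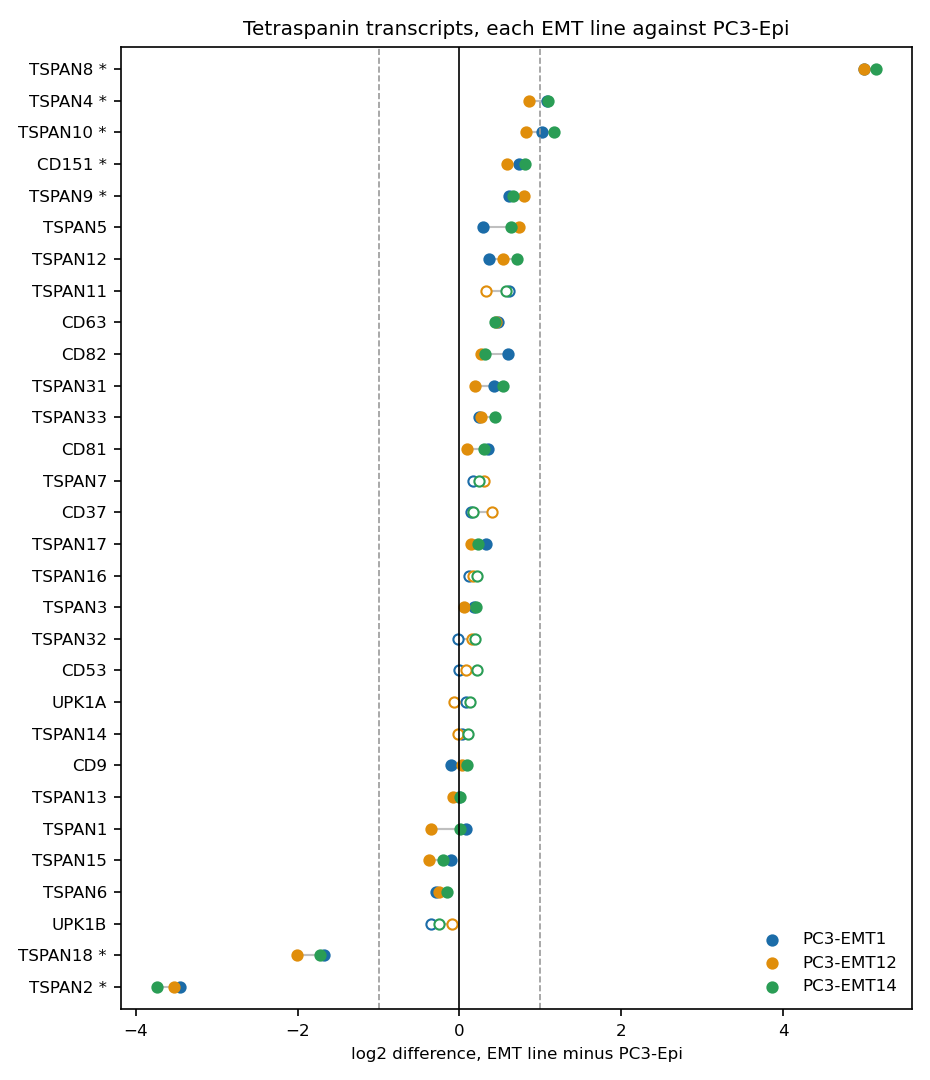
Log2 difference of each EMT line from PC3-Epi (horizontal axis) for the 30 tetraspanins, 1 coloured point per line, ordered by the mean. Open points are genes under log2 5 on all untransduced arrays, which were not tested; a star marks an adjusted p under 0.05 (limma) and dashed lines mark 2-fold. TSPAN8 stands alone on the right near 5 and TSPAN2 on the left near -3.6, with the lines close together in both.

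TSPAN8 (tetraspanin-8, on chromosome 12) read 3.60 in PC3-Epi, which is dim, while PC3-EMT1 read 8.59, PC3-EMT12 8.60 and PC3-EMT14 8.75. All 3 EMT lines lay far above PC3-Epi and close to one another. The difference was 5.05 ± 0.15 (SE) on the log2 scale with an adjusted p of 8.37e-05. Since PC3-Epi was dim, the ratio is a lower bound: against the highest bacterial control of that array, 4.43, the EMT mean of 8.65 ± 0.09 (SD, n = 3) was at least 18.5-fold higher. The study singled out TSPAN8 from these same arrays, so its direction is not independent evidence, and the gene passed the filter only through the EMT arrays.

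TSPAN2, a tetraspanin best known from oligodendrocytes, moved furthest the other way. It read 6.36 in PC3-Epi, 2.90 in PC3-EMT1, 2.83 in PC3-EMT12 and 2.63 in PC3-EMT14. The EMT arrays were all dim, and PC3-Epi stood clear of them. The difference was -3.57 ± 0.17 (SE), adjusted p = 0.000245, and with the dim arrays set to their bacterial controls, the level was at least 3.55-fold higher in PC3-Epi. The other 2 probe sets of TSPAN2 were dim on every untransduced array, with differences of -0.55 and -0.65, and the call was lost when a gene's probe sets were averaged, because TSPAN2 then did not pass the filter.

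TSPAN18, a tetraspanin described in endothelial cells, read 5.53 in PC3-Epi against 3.86, 3.52 and 3.81 in the EMT lines. PC3-Epi was the only untransduced array on which it exceeded the bacterial controls. The difference was -1.80 ± 0.18 (SE), adjusted p = 0.00275, and the bound was a level at least 1.99-fold higher in PC3-Epi. With 32 added to the linear values, which damps differences at low levels, it was -0.79, against -1.55 for TSPAN2 and 3.29 for TSPAN8, and all 3 kept their calls. Its second probe set read 5.12 in PC3-Epi and 3.83, 3.84 and 3.76 in the EMT lines, a difference of -1.31. Like TSPAN2, it passed the filter only through PC3-Epi, and neither was tested when the filter was set at log2 7.

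The promoters of TSPAN8 and TSPAN2, the members with the largest differences, differ in base composition. They are shown from RefSeq (GRCh38.p14, 250 bases before to 50 bases after the annotated start, written 5′ to 3′ on the gene's strand), with that of UPK1B, which holds the E-box nearest to a start among the members. In TSPAN2 and UPK1B, capitals mark the E-box CACCTG or its reverse complement CAGGTG, the core that ZEB1 is known to bind. In TSPAN8, which holds neither, capitals mark the longest run that stands 3 times in the window.
TSPAN8, chr12:71157760-71158059, minus strand: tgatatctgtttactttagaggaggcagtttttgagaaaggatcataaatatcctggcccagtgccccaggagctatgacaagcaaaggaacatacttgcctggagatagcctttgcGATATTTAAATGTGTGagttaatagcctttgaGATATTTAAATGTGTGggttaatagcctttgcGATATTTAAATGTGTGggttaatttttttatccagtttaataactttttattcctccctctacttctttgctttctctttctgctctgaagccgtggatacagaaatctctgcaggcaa
TSPAN2, chr1:115089454-115089753, minus strand: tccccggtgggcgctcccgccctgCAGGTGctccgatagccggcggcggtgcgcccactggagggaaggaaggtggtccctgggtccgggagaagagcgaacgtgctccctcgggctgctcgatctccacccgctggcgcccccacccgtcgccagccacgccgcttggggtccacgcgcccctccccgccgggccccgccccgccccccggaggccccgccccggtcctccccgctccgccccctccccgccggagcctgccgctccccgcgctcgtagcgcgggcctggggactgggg
UPK1B, chr3:119173348-119173647, plus strand: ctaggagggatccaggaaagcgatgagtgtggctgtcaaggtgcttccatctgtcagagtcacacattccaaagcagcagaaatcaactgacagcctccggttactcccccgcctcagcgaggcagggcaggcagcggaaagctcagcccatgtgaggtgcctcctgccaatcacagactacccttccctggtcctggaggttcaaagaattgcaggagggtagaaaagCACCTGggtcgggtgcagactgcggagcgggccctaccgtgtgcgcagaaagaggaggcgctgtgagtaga

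The TSPAN8 window is 38.0% G and C and holds 3 CG dinucleotides, and the repeated run in it is 16 bases long. The window of its other annotated start, chr12:71157950-71158249, is 42.3% G and C with 1 CG dinucleotide and no E-box. The TSPAN2 window is 79.7% G and C and holds 38 CG dinucleotides, where the median over all 35116 promoter windows was 58.7% and 14, respectively. Of the members, 22 had 42 such windows, and 11 windows held CACCTG or CAGGTG on either strand, which is 26.2% against 20.6% of all windows. Among the members called in EMT against PC3-Epi, the E-box was in the windows of TSPAN2 and TSPAN10 and in none of those of TSPAN8 and TSPAN4. CD37, CD81, CD151, TSPAN3, TSPAN7, TSPAN9, TSPAN18 and TSPAN32 were not matched to a window. A match of these letters is a description of the window and does not show binding.

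TSPAN4, a tetraspanin known from migrasomes, the vesicles that migrating cells leave on their retraction fibres, read 8.08 in PC3-Epi, 9.17 in PC3-EMT1, 8.95 in PC3-EMT12 and 9.18 in PC3-EMT14. All 3 EMT lines lay above PC3-Epi. The difference was 1.02 ± 0.16 (SE), or 2.02-fold, adjusted p = 0.00997. The second probe set moved by 0.91 and in all 3 lines the same way; the probe set used is of a kind that can also match other transcripts.

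TSPAN10, the TspanC8 member known from pigment cells, read 6.36 in PC3-Epi and 7.39, 7.19 and 7.53 in the EMT lines. Its difference of 1.00 ± 0.18 (SE), 2.00-fold, had an adjusted p of 0.0132. The other TSPAN10 probe set was dim on every array and differed by 0.01.

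CD151 read 8.82 in PC3-Epi and 9.56, 9.41 and 9.64 in the EMT lines, a difference of 0.71 ± 0.16 (SE), adjusted p = 0.0241. TSPAN9, which was described in platelets, read 5.72 in PC3-Epi and 6.33, 6.51 and 6.38 in the EMT lines, a difference of 0.69 ± 0.15 (SE), adjusted p = 0.0229. In both genes the 3 EMT arrays lay above PC3-Epi without overlap, and the second probe set of TSPAN9 differed by 0.74. Without PC3-EMT14, when fewer genes were called in all, the difference was 0.66 with an adjusted p of 0.0878 for CD151, and 0.70 with 0.0744 for TSPAN9. TSPAN9 was not tested with the filter at log2 7.

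**Figure D2:**
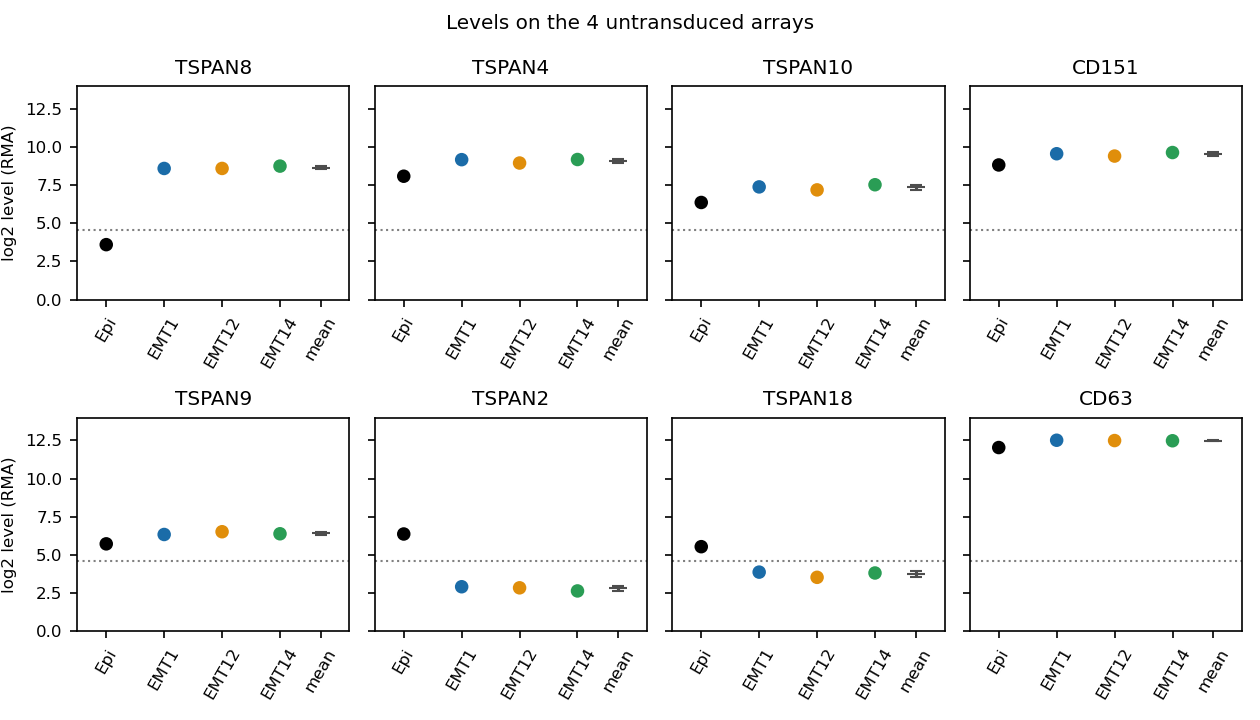
Log2 level of the 7 members called in EMT against PC3-Epi, and of CD63, on each of the 4 untransduced arrays (Epi is PC3-Epi, EMT1 to EMT14 are the mesenchymal lines). The last position of each panel shows the mean ± SD of the 3 EMT lines, and the dotted line is the highest bacterial control of the set, 4.56. TSPAN8 crosses that line upwards, TSPAN2 and TSPAN18 cross it downwards, and the others stay above it on all arrays.

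Among the surface tetraspanins, CD151 alone of 5 passed the test. CD63 stood just outside the threshold, with 12.03 in PC3-Epi and 12.51, 12.49 and 12.48 in the EMT lines and a difference of 0.46 ± 0.14 (SE), adjusted p = 0.0509. It passed with an intensity trend in the variance, with 32 added to the linear values, with the filter at log2 7 and with probe sets averaged. It did not pass without a filter, with quantile normalization or with any of the EMT lines left out. CD82 differed by 0.40 and CD81 by 0.25, both above PC3-Epi in all 3 lines, and the second probe set of CD82 differed by 0.67. CD9 read 12.16 in PC3-Epi and 12.05, 12.18 and 12.25 in the EMT lines, so that PC3-Epi lay inside the range of the mesenchymal lines.

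Of the TspanC8 group, 5 of 6 were tested and TSPAN10 alone was called. TSPAN5, which acts on Notch through ADAM10, differed by 0.55 (adjusted p = 0.0913), and its 3 probe sets gave 0.50 to 0.55. Of the settings run, TSPAN5 passed the test only without PC3-EMT1. Its difference was 0.29 in that line, against 0.73 in PC3-EMT12 and 0.64 in PC3-EMT14. TSPAN33 differed by 0.32, TSPAN17 by 0.23 and TSPAN15 by -0.22, and none of these 3 passed. TSPAN14 was dim on all 4 untransduced arrays and not tested.

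The remaining members tested were TSPAN1, TSPAN3, TSPAN6, TSPAN12, TSPAN13 and TSPAN31, and none passed. TSPAN12, a co-receptor of the Norrin receptor FZD4, differed by 0.54 (adjusted p = 0.0683), but its 3 probe sets disagreed, at 0.54, 0.47 and -0.68. Of the settings run, TSPAN12 passed the test only without PC3-EMT1. TSPAN31 differed by 0.39, TSPAN3 by 0.15, TSPAN13 by -0.03, TSPAN1 by -0.09 and TSPAN6 by -0.23. Of the 10 members with more than 1 probe set past log2 5 on an untransduced array, 9 had all of them on the same side of 0, and TSPAN12 was the exception.

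The 9 members that stayed under log2 5 on all untransduced arrays were not tested. They include the leukocyte tetraspanins CD37, CD53 and TSPAN32, which are used by blood cells, and the uroplakins UPK1A and UPK1B. TSPAN7, TSPAN11, TSPAN14 and TSPAN16 complete them. Their differences ran from -0.23 in UPK1B to 0.51 in TSPAN11, and of the probe sets used TSPAN11 alone exceeded the bacterial controls on any untransduced array. A second TSPAN16 probe set did so in PC3-EMT1, at 4.66.

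By the study's own kind of rule, a difference of at least 2-fold, the same way, in each of the lines, TSPAN8 was higher and TSPAN2 and TSPAN18 were lower, that is 1 and 2 of the 21 members tested. Over all genes tested, 2.95% were higher and 4.9% lower by this rule. TSPAN8, TSPAN2 and TSPAN18 each passed the filter only through the group where they were high, and were dim in the other. The bound for TSPAN18 was 1.99-fold, so its place in this count rests on dim values. TSPAN4 and TSPAN10 missed it in PC3-EMT12 only, at 0.87 and 0.83, so that without PC3-EMT12 there were 3 members higher. Of the members tested, 14 lay above PC3-Epi in all 3 lines, against 46.0% of all genes, and 4 lay below it in all 3, against 36.7% of all genes. These line differences share the PC3-Epi array, which has no replicate.

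Some members lie close together in the genome. CD151 (chr11:832952-838831) and TSPAN4 (chr11:842852-867111) are 4.02 kb apart in GRCh38.p14 with 1 protein-coding gene between them, and both rose in the EMT lines, by 0.71 and 1.02. CD82 (chr11:44564409-44620358) and TSPAN18 (chr11:44726310-44932423) are 106 kb apart with no protein-coding gene between them, and TSPAN18 fell to a dim level while CD82 differed by 0.40 without passing the test. Chromosomes 11 and 12 hold 6 members each.

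The genes listed as partners, which here also take in genes for exosome formation and the Norrin ligand NDP, held some that rose and some that fell. Of 37 partner genes on the arrays, in lists that share no gene with the tetraspanins, 32 were tested, 6 were called higher (13.9% of all genes were) and 11 lower (15.4% of all genes), with no test of the list itself, and their median difference was -0.49. The listed immunoglobulin superfamily partners split: PTGFRN fell by 4.05 and IGSF3 fell by 3.46, whereas IGSF8 differed by -0.17 and did not pass. In the EPCAM complex, which TSPAN8 and CD9 can join, EPCAM fell by 3.35 and the claudin CLDN7 fell by 3.62, and CLDN1 and CD44 did not pass.

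Among the integrins, ITGA3, one of the CD151 partners, rose by 0.56 and ITGA7 by 0.61, while ITGA2 fell by 1.28 and ITGB4 fell by 0.76. ITGA6 lay below PC3-Epi in all 3 lines, at -0.59, and ITGB1 was at -0.13, without passing the test. ADAM10, the protease that TspanC8 members carry, fell by 1.19, and the growth factor receptor EGFR fell by 1.71, while the membrane protease MMP14 rose by 0.95 and the growth factor HBEGF, a CD9 partner, by 0.83. The adhesion receptor ICAM1 rose by 0.63 and the complement regulator CD46 fell by 0.99. Of the genes for exosome formation, SDCBP (syntenin) fell by 0.67 and RAB27B fell by 0.76, and the other 4 tested did not pass. NDP, the Norrin ligand of the receptor that TSPAN12 joins, rose by 2.45, with FZD4 at -0.72 and LRP5 at 0.32 not passing. The lists were chosen with earlier results of these data known, and EPCAM also served as an epithelial marker.

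The second comparison asked which tetraspanins differed when ZEB1 was reduced in the mesenchymal lines. TSPAN8 was lower in the sh4 array of both lines, and no other member tested differed by 2-fold in both. With limma on the 4 transduced arrays, each sh4 array set against the Scr array of its own line, 28 members were tested and none was called. No gene of 16661 was called either (0.0%), CDH1 included. At an unadjusted p under 0.05 there were 4 members, TSPAN8, TSPAN31, UPK1B and TSPAN1, and 2499 genes (15.0%). The median difference was -0.01 for the members and 0.02 for all genes tested. In a fit that added the untransduced arrays of both lines, 115 genes were called higher and 81 lower, among them 1 tetraspanin, TSPAN8.

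TSPAN8 read 11.63 in Scr and 9.68 in sh4 cells of PC3-EMT1, and 10.72 in Scr and 9.06 in sh4 cells of PC3-EMT14. Both sh4 levels lay under both Scr levels and all were well above the bacterial controls. The difference was -1.81 ± 0.13 (SE), 3.50-fold lower in sh4, at -1.95 in PC3-EMT1 and -1.66 in PC3-EMT14. Its adjusted p was 0.144. Across the other settings the adjusted p ran from 0.0196 with quantile normalization to 0.385 without the pairing of arrays by line, and it also passed with probe sets averaged (0.0398) and with the 6 arrays (0.0231). TSPAN8 was the 1 member lower by 2-fold in both lines, a rule met by 0.132% of genes tested, and no member was higher by it, against 0.276% of genes. As above, the study named TSPAN8 from these arrays.

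**Figure D3:**
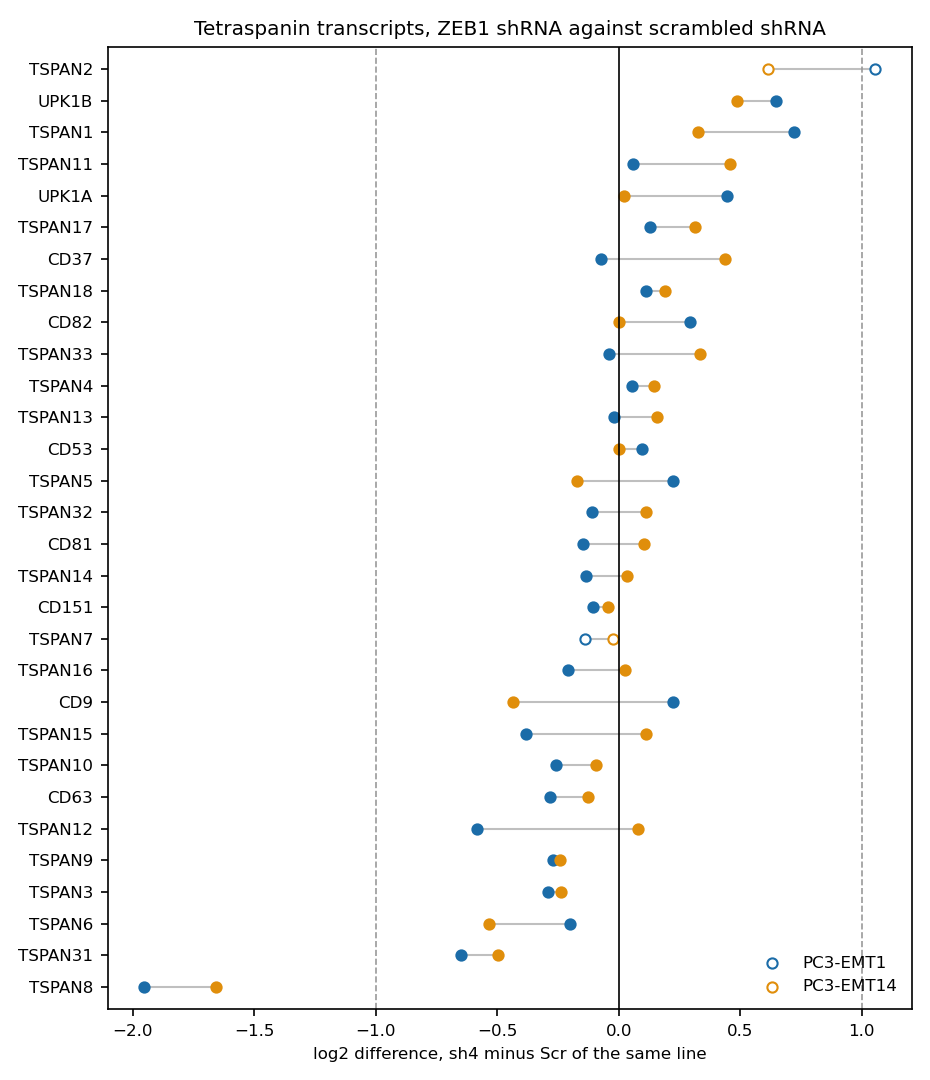
Log2 difference of sh4 from Scr in PC3-EMT1 and PC3-EMT14 (horizontal axis) for the 30 tetraspanins, ordered by the mean. Open points are genes under log2 5 on all transduced arrays, which were not tested, and dashed lines mark 2-fold. TSPAN8 lies left of -1 in both lines, and TSPAN2, at the top, is dim on all 4 arrays.

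TSPAN31, a tetraspanin first found amplified in sarcoma, read 9.93 and 9.99 in the Scr arrays of PC3-EMT1 and PC3-EMT14 and 9.29 and 9.49 in their sh4 arrays. The groups did not overlap, and the difference was -0.57 ± 0.11 (SE), adjusted p = 0.261. The second probe set gave -0.54 on average but -0.15 in PC3-EMT1 and -0.93 in PC3-EMT14.

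TSPAN1, an epithelial tetraspanin studied in several carcinomas, read 10.05 and 9.84 in Scr and 10.77 and 10.17 in sh4 cells of PC3-EMT1 and PC3-EMT14, a difference of 0.52 ± 0.14 (SE), adjusted p = 0.295. UPK1B read 5.33 and 5.25 in Scr and 5.97 and 5.74 in sh4 cells, a difference of 0.57 ± 0.11 (SE), adjusted p = 0.262. Both were higher in the sh4 array of each line, but all 4 UPK1B values were dim, and its second probe set differed by 0.09.

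TSPAN2 read 3.30 in Scr and 4.36 in sh4 cells of PC3-EMT1, and 3.63 in Scr and 4.25 in sh4 cells of PC3-EMT14. Both sh4 values were higher, by 1.06 and 0.62, but all 4 were dim and the gene, under log2 5, was not tested. TSPAN7 was the other member left untested. TSPAN18 read 5.63 and 5.60 in Scr and 5.74 and 5.80 in sh4 cells, all dim, a difference of 0.15.

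**Figure D4:**
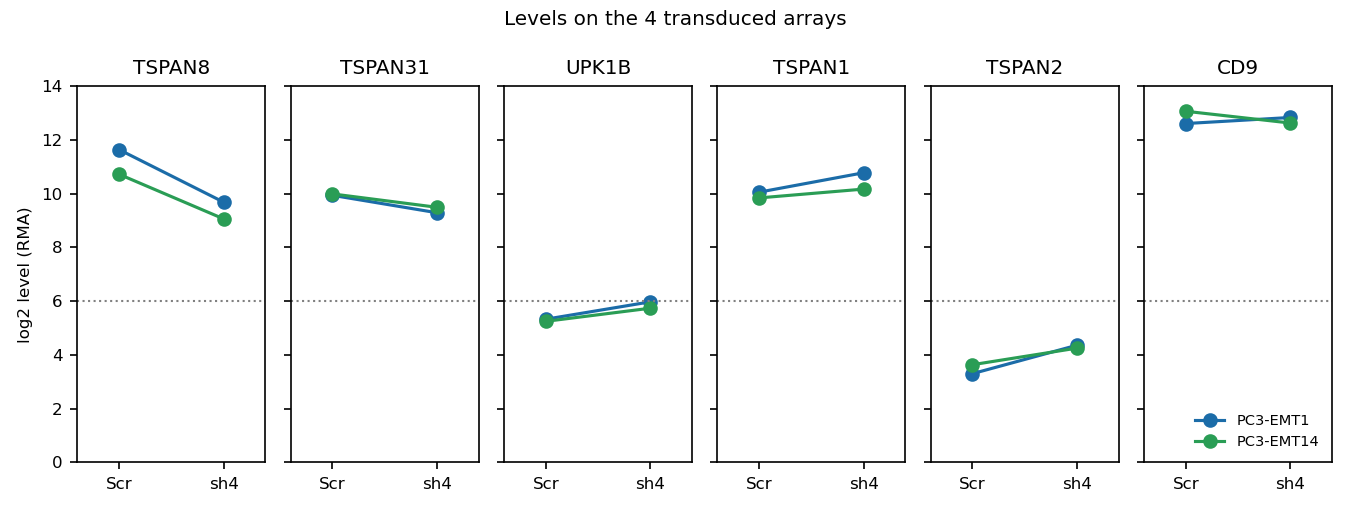
Log2 level of 6 members on the 4 transduced arrays, with a line joining the Scr and sh4 array of each cell line. The dotted line is the highest bacterial control of the set, 6.00. TSPAN8 slopes down steeply in both lines, TSPAN31 less so, TSPAN1 and UPK1B slope up, and the CD9 lines cross.

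The surface tetraspanins differed little between sh4 and Scr. CD63 was at -0.21, CD9 at -0.11, CD151 at -0.08, CD81 at -0.02 and CD82 at 0.15, with none past an unadjusted p of 0.05. The 6 TspanC8 genes ran from -0.18 in TSPAN10 to 0.22 in TSPAN17. The leukocyte tetraspanins ran from 0.00082 to 0.18, and UPK1A was at 0.23. TSPAN14, CD37, CD53 and UPK1A were dim on all 4 transduced arrays. Of the rest, TSPAN6 was at -0.37, TSPAN3 at -0.26, TSPAN9 at -0.26, TSPAN12 at -0.25, TSPAN16 at -0.09, TSPAN13 at 0.07, TSPAN4 at 0.10 and TSPAN11 at 0.26. Of 15 members with more than 1 probe set past log2 5 on a transduced array, 5 had all of them on the same side of 0, but log2 5 lies under the bacterial controls of this set and many of these probe sets were dim. Of 9 members with more than 1 probe set above the controls on all 4 transduced arrays, 3 had all of them on the same side. Of the 28 members tested, 9 lay above Scr in both lines, against 35.1% of all genes, and 8 lay below it in both, against 28.7% of all genes. Those above include CD53, TSPAN18, UPK1A and UPK1B, which were dim on all 4 transduced arrays.

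Of the partners, 35 were tested in sh4 against Scr and none was called, with 9 at an unadjusted p under 0.05 (limma), where 15.0% of all genes were. EPCAM, CLDN7 and PTGFRN were higher by 2-fold in both lines, at 1.97, 1.20 and 1.16, the 3 partners of all lists that met this rule. Of all genes tested, 0.276% met it, and the lists were chosen with earlier results of these data known. NDP was at -0.70, SDC4 at 0.57 and EGFR at 0.72. The integrins ran from -0.23 to 0.47 and ADAM10 was at -0.09.

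The comparisons of EMT with PC3-Epi and of sh4 with Scr share no array, so the members can be set side by side. Of the 20 members tested in both, 14 lay above PC3-Epi in all 3 lines. Of these 14, 7 lay below Scr in both sh4 arrays by the probe set used, namely TSPAN8, TSPAN9, TSPAN10, TSPAN31, TSPAN3, CD63 and CD151. Over all genes above PC3-Epi in all 3 lines, 37.2% did the same. Other probe sets above the bacterial controls did not all repeat this. The second TSPAN9 probe set was higher in sh4, by 0.29 in PC3-EMT1 and 0.06 in PC3-EMT14. For TSPAN3, 1 further probe set was at 0.10 and -0.04, and another was lower in both lines, as was the second of TSPAN31. Of the 3 members below PC3-Epi in all 3 lines, TSPAN18 was above Scr in both sh4 arrays, where 35.0% of such genes were. However, TSPAN18 was dim on every transduced array. TSPAN4, which rose in the EMT lines, was at 0.06 and 0.15 in sh4 against Scr by the probe set used, lower in neither line. Its second probe set was at 0.17 in PC3-EMT1 and -0.09 in PC3-EMT14. TSPAN8 was the only one of the 20 to exceed 2-fold in every line of both comparisons. The study had picked TSPAN8 by a rule of this kind on these same arrays, so this is not independent evidence. In the untransduced set it also passed the filter only through the EMT arrays.

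**Figure D5:**
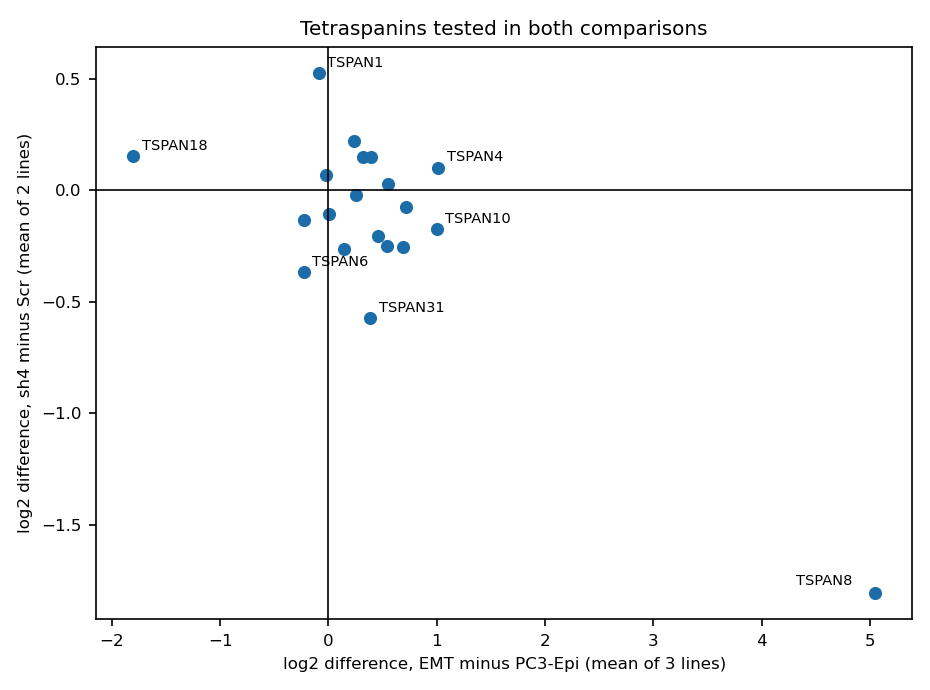
Mean log2 difference of EMT from PC3-Epi (horizontal axis, 3 lines) against that of sh4 from Scr (vertical axis, 2 lines) for the 20 tetraspanins tested in both, 1 point per gene. TSPAN8 lies alone at the lower right, at 5.05 and -1.81. The other points lie within 0.6 of 0 on the vertical axis.

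The third comparison asked whether the tetraspanins differed between PC3-EMT14 and PC3-EMT1, within the untransduced, Scr and sh4 arrays in turn. Of 28 members tested, limma called none, while 304 of 16662 genes (1.82%) were called. At an unadjusted p under 0.05 there were 5 members, TSPAN5, CD151, TSPAN33, TSPAN8 and TSPAN1, and 2717 genes (16.3%). No member was called under any other setting that was run.

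TSPAN5 was higher in PC3-EMT14 in all 3 conditions, by 0.35 untransduced, 0.61 in Scr and 0.21 in sh4 (mean 0.39 ± 0.11, SE; adjusted p = 0.128). CD151 was also higher in all 3, by 0.08, 0.39 and 0.45, and TSPAN33 by 0.20, 0.12 and 0.49. TSPAN1 was lower in all 3, at -0.07, -0.21 and -0.61. TSPAN8 did not keep its direction: PC3-EMT14 minus PC3-EMT1 was 0.15 in the untransduced cells, -0.92 in Scr and -0.62 in sh4. The order of these lines by TSPAN8 thus turned between the untransduced and the transduced arrays.

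Of 35 partner genes tested, 2 were called between the lines, where 1.82% of all genes were, with lists chosen as said above. CLDN7 was higher in PC3-EMT14 by 1.00 (adjusted p = 0.00704), at 0.87, 1.09 and 1.02 in the 3 conditions. MET was higher by 0.49 (adjusted p = 0.0489), at 0.46, 0.53 and 0.49. Without the untransduced pair no gene was called, these included. The median difference was -0.0076 for the members and -0.0092 for all genes tested.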

How the data were processed

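Total RNA of 8 cell line samples was measured on Affymetrix arrays with 54675 probe sets. The authors deposited log2 values made with RMA in the affy package (submitters' processing notes; versions not given in the sources used here), and these were used unchanged. Arrays were paired across Scr and sh4 by the labels' replicate numbers, which name the EMT line. Probe sets with 1 gene symbol (41091) gave 19775 genes, each taken from its brightest probe set. A gene was tested if any array of the comparison reached log2 5. Differences were fitted in R 4.3.3 with limma 3.58.1 (eBayes, two-sided, Benjamini-Hochberg over all genes kept, threshold 0.05): EMT against PC3-Epi on the 4 untransduced arrays (2 residual degrees of freedom, with the lone PC3-Epi array assumed to vary like the EMT lines), sh4 against Scr on the 4 transduced arrays with the line as a block (1 residual degree of freedom), and PC3-EMT14 against PC3-EMT1 on 6 arrays with the condition as a block. Another count took genes at 2-fold or more the same way in every line. Bounds for dim genes use each array's highest bacterial control. Levels on every array are given for members called or past the 2-fold rule and for TSPAN8. TSPAN31, TSPAN1, UPK1B, TSPAN2, TSPAN18 and CD9 in sh4 against Scr, and CD63 and CD9 in EMT against PC3-Epi, were given so after their values were seen. Of the partner lists, genes called are named, and the others named were chosen after their values were seen. The members and lists were chosen with earlier results of these data known. TSPAN19, PDCD6IP and CD68 were listed but are not analysed here. The fits were tested on simulated data. Figures were drawn with matplotlib 3.10.9 in Python 3.11.15.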

Additional observations from a re-analysis of the deposited data

Results flagged for a closer look

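CD9 moved in opposite directions in the lines given the ZEB1 shRNA: sh4 minus Scr was 0.23 in PC3-EMT1 and -0.44 in PC3-EMT14. This was the only member to differ by at least 0.2 in each line with opposite signs, and with 1 array per line and condition the difference between the lines was not tested. CD9 read 12.60 in Scr and 12.83 in sh4 cells of PC3-EMT1, and 13.06 and 12.62 in those of PC3-EMT14, so the sh4 levels of the lines were closer together than their Scr levels. Of the other CD9 probe sets, 1 was dim on all 4 transduced arrays. The remaining probe set was dim in both PC3-EMT1 arrays and gives no check there. In PC3-EMT14 it read 6.11 in Scr and 6.14 in sh4 cells, barely above the bacterial controls, and so did not repeat the fall.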

How the results depend on the processing

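For EMT against PC3-Epi, 5 members were called higher and 2 lower. Leaving out PC3-EMT1, PC3-EMT12 or PC3-EMT14 in turn gave 3 to 7 higher, with 732 to 2089 genes called higher and 1109 to 2322 lower, the fewest without PC3-EMT14, against 1661 and 1835. At the filter of log2 7, 5 were called higher, with CD63 in the place of TSPAN9, which was not tested. Members called lower numbered 0 with the filter at log2 7 and 1 with probe sets averaged. Members lower by 2-fold in every line numbered 0 with the filter at log2 7, 1 with probe sets averaged and 1 with 32 added to the linear values. Those higher by 2-fold ran from 1 to 3 when a line was left out, and 4 were higher by 1.5-fold. For sh4 against Scr, where no gene was called, 1 member (TSPAN8) was called lower with quantile normalization (36 genes higher, 16 lower), with probe sets averaged (13 and 2) and with 6 arrays and the replicate block (115 and 81). Genes called higher numbered 4 with 32 added, 4 with the filter at log2 7, 2 with the intensity trend and 1 without the pairing of arrays by line as a block, and leaving out that block changed no member's call. For PC3-EMT14 against PC3-EMT1, leaving out the EMT, Scr or sh4 pair gave 0 to 217 genes higher and 0 to 55 lower, none without the EMT pair, against 254 and 50. The counts were 102 and 15 with 32 added, 165 and 26 with probe sets averaged, and 91 and 19 with quantile normalization. The cause of these shifts was not tested, beyond the fewer genes or arrays that some settings use.

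Members whose sign turned were all near 0 and not called. In EMT against PC3-Epi, CD9 was at -0.0479 with quantile normalization, and leaving out a line gave -0.0411 to 0.0619 for CD9, -0.17 to 0.0466 for TSPAN1 and -0.0394 to 0.0013 for TSPAN13. In sh4 against Scr, probe sets averaged gave 0.0621 for CD9, 0.0526 for TSPAN14, 0.0322 for TSPAN16, -0.0093 for TSPAN32 and -0.0324 for TSPAN5, and quantile normalization gave -0.0426 for CD53 and -0.048 for TSPAN32.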
